A study of Mus musculus with 4 samples.

Results

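The 10 genes described here encode the subunits that define the motors of intraflagellar transport, the traffic of protein trains along the ciliary axoneme. They were picked by gene symbol from the deposited table: Dync2h1, Dync2i1, Dync2i2, Dync2li1 and Dynlt2b for cytoplasmic dynein-2, and Kif3a, Kif3b, Kif3c, Kifap3 and Kif17 for kinesin-2. All 10 of 10 were found under these symbols, among 18471 genes read, and all 10 passed the filter on low counts, which left 17300 genes for testing. RNA was sequenced from retinas of mouse embryos at embryonic day 19, with 2 libraries from wild-type embryos and 2 from Foxn3KO embryos. The Foxn3KO embryos are homozygous (Foxn3-/-) for a deletion of exon 3 in the allele C57BL/6NJ-Foxn3em1(IMPC)Bay/Mmnc, which is carried in every cell of the animal and is not limited to the retina. Each library was made from the retina of a single genotyped embryo, and no treatment is labelled. The labels do not name litters, so p-values measure only the spread between these libraries.

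Cilia are built and maintained by trains of intraflagellar transport proteins. Kinesin-2 walks towards the microtubule plus ends at the ciliary tip (anterograde transport), and dynein-2 returns trains, spent motors and membrane receptors to the base (retrograde transport). The heterotrimeric form of kinesin-2 pairs the motor subunit KIF3A with KIF3B or KIF3C and binds cargo through the associated protein KAP3, encoded by Kifap3, while KIF17 forms a homodimer. In dynein-2, DYNC2H1 is the force-producing heavy chain, DYNC2I1 and DYNC2I2 are intermediate chains, DYNC2LI1 is the light intermediate chain and DYNLT2B is a light chain particular to this motor. In the retina, photoreceptors carry proteins to their outer segment through a modified primary cilium, and defects of either motor are known to disturb it.

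The depth was 22543531 to 29360129 counts per library, so that 1 count equalled 0.0343 to 0.0447 CPM (counts per gene divided by the library size in megareads, with TMM factors). Foxn3 itself, the targeted gene, had 97.6 and 99.8 CPM in the wild-type libraries and 143.6 and 143.7 CPM in the Foxn3KO libraries. It was higher, not lower, in the libraries labelled Foxn3KO. Counts summed over a gene cannot show the loss of 1 exon, so the labels alone name the groups here and set every direction. Wild-type replicate 1 stood apart in sex-linked transcripts: it had 83073 counts of Xist and 0 of Ddx3y, against 9 to 19 and 1780 to 2317 in the other 3 libraries. The motor genes are therefore also given with that library left out. Markers of retinal cell classes were present in every library. Of 6 progenitor markers 1 rose and 1 fell (summed CPM 2186 and 2297 in wild-type, 2205 and 2233 in Foxn3KO), and of 7 photoreceptor precursor markers 3 rose (1128 and 1121 against 1137 and 1145). Of 6 ganglion cell markers 1 fell, and of 6 amacrine and horizontal cell markers 2 fell. These counts stand beside 12.3% of all tested genes called higher and 9.66% called lower. With wild-type replicate 1 left out, 3 progenitor and 2 ganglion cell markers fell.

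Of the 10 motor subunit genes, 9 were higher in the libraries labelled Foxn3KO, none was lower, and Kif3c did not pass the test (edgeR quasi-likelihood test, Benjamini-Hochberg adjustment over all tested genes, adjusted p under 0.05). Among all tested genes 12.3% were called higher, 9.66% lower and 21.9% in either direction. All 5 dynein-2 genes and 4 of 5 kinesin-2 genes were called. The median log2 fold change was 0.88 for dynein-2 and 0.50 for kinesin-2, against -0.0047 over all tested genes. Each of the 9 called genes had both Foxn3KO libraries above both wild-type libraries, a pattern shown by 29.9% of all tested genes; in either direction, groups did not overlap for 60.4%. In bulk tissue, a change in the share of cells that express a gene and a change in its RNA per cell cannot be told apart.

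**Figure D1:**
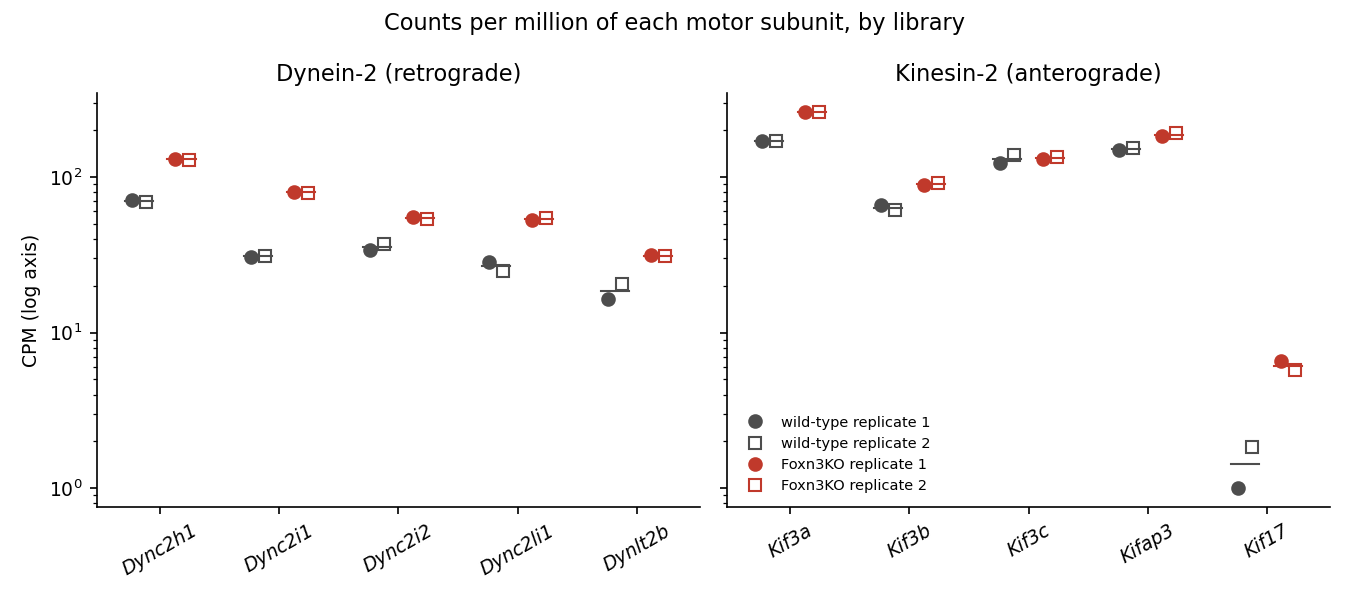
CPM (log axis) of the 5 dynein-2 genes (left) and the 5 kinesin-2 genes (right); each symbol is 1 library (filled circle replicate 1, open square replicate 2), grey for wild-type and red for Foxn3KO, and short lines mark the group means. The red points lie above the grey ones for every gene but Kif3c, whose 2 groups overlap, and Kif17 is the least abundant member.

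Here and below, a rise or fall given without a unit is a log2 fold change. Among transcriptional regulators of ciliary genes, Foxj1, the forkhead factor of motile ciliogenesis, rose by 4.45 (21.9-fold, edgeR adjusted p = 1.60e-18). Rfx2 rose by 1.41 (edgeR adjusted p = 1.18e-10), Rfx1 by 0.46 (edgeR adjusted p = 6.15e-05) and Rfx3 by 0.40 (edgeR adjusted p = 1.35e-05). The multiciliated cell marker Myb did not pass (log2 fold change -0.03, edgeR adjusted p = 0.602), and Mcidas and Gmnc were not among the genes read. RFX proteins are known to bind the X-box in promoters of ciliary genes, a pair of inverted short arms. The promoter windows of the members were therefore searched on both strands, from 250 bases before to 50 bases after the start of transcription (RefSeq, GRCm38.p6); 9 of the 10 members had an entry, Dync2li1 being the exception.

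The RFX binding arm GTTGCC was present in 5 of 9 windows (Dync2h1, Dynlt2b, Kif3a, Kif3c and Kif17), against 12.5% of 32851 promoter windows of the same length. The variant GTTGCT, added after the windows had been seen, was present in 4 (Dync2i1, Kif3b, Kif3c and Kif17), against 14.8%. The full X-box consensus, whose first arm can be GTTGCC, was in 0 of 9 (0.451% of all windows), and the forkhead motif GTAAACA in 0 of 9 (3.65%). The alternative motif GACGC, described for FOXN3, was in 5 of 9 (27.2%), as was the unrelated CCAAT box (37.4%). The X-box consensus searched for was a single form of 14 bases, with a set gap between its arms and set letters in its second arm. The 0 of 9 therefore holds for that form only. Inverted pairs with another gap or a variant second arm, such as the pair in Kif17 described below, were not counted. Matches are descriptions of letters, not binding sites, and Kif3c, which did not pass the test, held both arms.

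Stretches of 120 bases are shown for Kif17, the member with the largest rise, for the heterotrimer genes Kif3a and Kif3b, for Kif3c, which holds like letters and did not pass the test, and for Dynlt2b. Capitals mark GTTGCC or GTTGCT on either strand (on the opposite strand they read GGCAAC and AGCAAC), each sequence runs 5′ to 3′ on the strand of the gene, and coordinates are those of GRCm38.p6, plus strand for all 5. The build named in the submitters' processing notes, mm39, has other coordinates.
Kif17, chr4:138262126-138262245: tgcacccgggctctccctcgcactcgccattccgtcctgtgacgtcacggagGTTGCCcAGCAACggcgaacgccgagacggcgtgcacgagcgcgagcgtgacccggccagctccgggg
Kif3a, chr11:53567244-53567363: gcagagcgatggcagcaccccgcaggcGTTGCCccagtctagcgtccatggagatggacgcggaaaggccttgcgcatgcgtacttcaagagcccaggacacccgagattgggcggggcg
Kif3b, chr2:153291291-153291410: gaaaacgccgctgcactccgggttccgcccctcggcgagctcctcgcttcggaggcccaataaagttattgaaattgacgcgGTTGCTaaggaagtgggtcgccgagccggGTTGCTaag
Kif3c, chr12:3364952-3365071: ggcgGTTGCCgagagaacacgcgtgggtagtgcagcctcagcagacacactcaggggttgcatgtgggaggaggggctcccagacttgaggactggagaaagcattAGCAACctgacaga
Dynlt2b, chr16:32419577-32419696: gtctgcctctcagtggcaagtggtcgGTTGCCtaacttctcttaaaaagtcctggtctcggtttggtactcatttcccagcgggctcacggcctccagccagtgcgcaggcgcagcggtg

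In Kif17, GTTGCC (73 to 68 bases before the start) and an inverted GTTGCT (66 to 61 bases before it) have 1 base between them and point towards each other, and another GTTGCT lies 215 to 210 bases before the start. In Kif3c the arms lie 176 to 171 and 74 to 69 bases before the start and are not adjacent. Kif3a and Dynlt2b have GTTGCC at 98 to 93 and 99 to 94 bases before the start, and Kif3b has GTTGCT in the same orientation at 43 to 38 and 14 to 9 bases. The letters in Dync2h1 and Dync2i1, and another GTTGCC in Dynlt2b (21 to 26 bases after the start), lie after the start and are not shown.

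Among the retrograde motor genes, the heavy chain Dync2h1 (ENSMUSG00000047193, chromosome 9) had 1757 and 1887 counts in the wild-type libraries and 3788 and 2884 in the Foxn3KO libraries. On the CPM scale this was 70.9 and 69.5 against 130 and 129. The 2 libraries of a group differed by at most 1.02-fold, and the lower Foxn3KO value was 1.82 times the higher wild-type value. The log2 fold change was 0.88 (SE 0.048, 95% interval 0.78 to 0.99, edgeR adjusted p = 1.63e-10).

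Dync2i1 (ENSMUSG00000042050, chromosome 12), an intermediate chain known as Wdr60, rose the most within dynein-2. It had 758 and 848 counts in wild-type and 2345 and 1775 in Foxn3KO, or 30.6 and 31.2 CPM against 80.5 and 79.3 CPM. The groups lay far apart relative to their spread, with a log2 fold change of 1.37 (SE 0.057, edgeR adjusted p = 3.02e-12), a 2.59-fold difference. Of all tested genes, 2.31% had a larger log2 fold change.

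The partner intermediate chain Dync2i2 (ENSMUSG00000039715, chromosome 2), known as Wdr34, rose least within dynein-2. Its levels were 34.2 and 37.0 CPM in wild-type and 55.3 and 53.7 CPM in Foxn3KO, a log2 fold change of 0.62 (SE 0.063, edgeR adjusted p = 8.82e-07). The 95% interval of Dync2i2, 0.48 to 0.75, did not reach that of Dync2i1, 1.25 to 1.49; the difference between these genes was not tested.

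Dync2li1 (ENSMUSG00000024253, chromosome 17), the light intermediate chain, had 28.4 and 24.9 CPM in wild-type and 52.9 and 54.5 CPM in Foxn3KO. Its log2 fold change was 1.01 (SE 0.070, edgeR adjusted p = 5.14e-09), close to a doubling (2.02-fold). The light chain gene Dynlt2b (ENSMUSG00000014075, chromosome 16), known as Tctex1d2, had 16.5 and 20.5 CPM in wild-type and 31.4 and 31.2 CPM in Foxn3KO. Its wild-type libraries were the most unequal of the dynein-2 genes, 1.25-fold apart, and its log2 fold change was 0.76 (SE 0.092, edgeR adjusted p = 7.94e-06). Leaving out a wild-type library moved it to 0.61 (replicate 1 left out) or 0.93 (replicate 2 left out).

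Among the anterograde motor genes, Kif3a (ENSMUSG00000018395, chromosome 11) encodes the motor subunit common to both heterotrimeric forms and was the most abundant member. It had 4234 and 4633 counts in wild-type and 7554 and 5824 in Foxn3KO, or 170.7 and 170.5 CPM against 259 and 260.1 CPM. Replicates agreed within 1.002-fold, and the log2 fold change was 0.61 (SE 0.042, edgeR adjusted p = 4.74e-09).

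Its partners KIF3B and KIF3C are encoded by paralogs, of which Kif3b rose and Kif3c did not pass the test. Kif3b (ENSMUSG00000027475, chromosome 2) had 65.8 and 61.4 CPM in wild-type and 88.2 and 91.6 CPM in Foxn3KO, a log2 fold change of 0.50 (SE 0.054, edgeR adjusted p = 1.87e-06). Kif3c (ENSMUSG00000020668, chromosome 12) had 123 and 138 CPM in wild-type and 131 and 134 CPM in Foxn3KO, with both Foxn3KO values between the wild-type ones. Its log2 fold change was 0.02 (SE 0.053, edgeR adjusted p = 0.816), and the 95% interval of the fold, 0.94 to 1.10, lay below the 1.41-fold difference of Kif3b. Without wild-type replicate 1 the sign of Kif3c turned, to -0.05, and without wild-type replicate 2 its log2 fold change was 0.10.

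Kif3c was expressed at 123 CPM or more in every library, and its wild-type libraries were 1.11-fold apart. An antisense gene, 1110002L01Rik, overlaps Kif3c in the GENCODE M21 annotation. It had 38.5 ± 3.95 CPM (SD, n = 2) in wild-type and 35.3 ± 0.444 CPM (SD, n = 2) in Foxn3KO and did not pass the test (edgeR adjusted p = 0.253). The use of strand in counting is not given in the sources used here, so reads from the overlap cannot be assigned with certainty.

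Kifap3 (ENSMUSG00000026585, chromosome 1), which encodes the cargo-binding subunit, had 148 and 154 CPM in wild-type and 183 and 191 CPM in Foxn3KO. The rise was the smallest of the 9, with a log2 fold change of 0.30 (SE 0.045, edgeR adjusted p = 8.36e-05), or 1.24-fold. Its replicates differed by 1.04-fold in both groups, which is less than the 1.19-fold gap between the lower Foxn3KO and the higher wild-type value.

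Kif17 (ENSMUSG00000028758, chromosome 4), the homodimeric kinesin-2, was rare and had the largest relative rise of the 10. It had 25 and 50 counts in wild-type and 190 and 129 in Foxn3KO, or 1.01 and 1.84 CPM against 6.52 and 5.76 CPM. The log2 fold change was 2.10 (SE 0.230, edgeR adjusted p = 2.33e-06), a 4.27-fold difference with a 95% interval of 3.05 to 5.99. The wild-type libraries were 1.83-fold apart, so the size depends on which is used, from 1.75 with replicate 1 left out to 2.61 with replicate 2 left out. Sh2d5, which overlaps Kif17 on the same strand in GENCODE M21, had 9.07 ± 0.122 CPM (SD, n = 2) in wild-type and 9.14 ± 1.22 CPM (SD, n = 2) in Foxn3KO (edgeR adjusted p = 0.987).

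**Figure D2:**
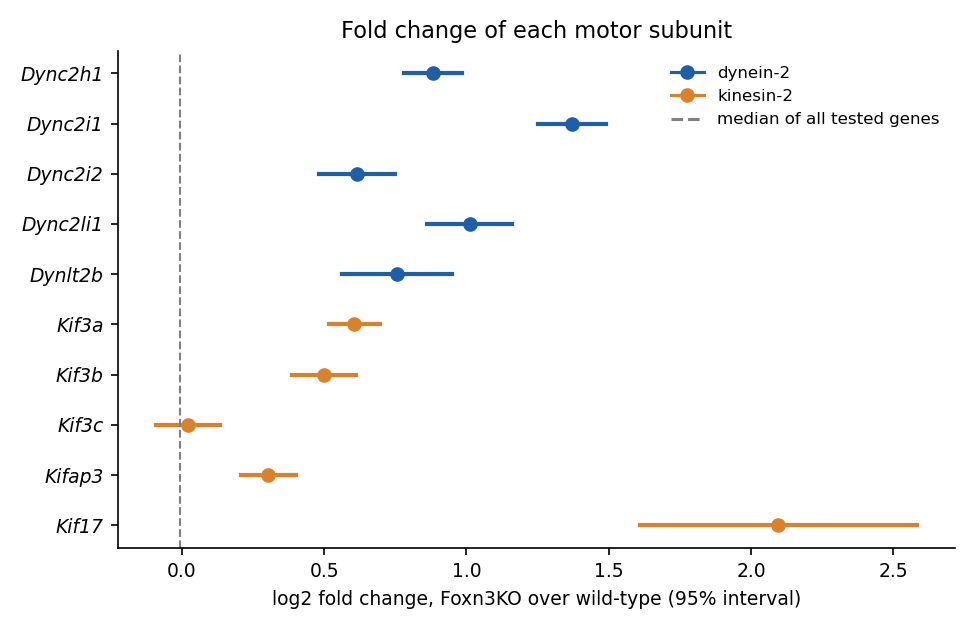
Log2 fold change (Foxn3KO over wild-type, horizontal axis) of each motor gene with its 95% interval from the edgeR fit; blue is dynein-2, orange is kinesin-2, and the dashed line is the median of all tested genes. The interval of Kif3c spans 0, those of the other 9 genes lie above it, and Kif17 has the widest interval, 1.61 to 2.58.

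Retrograde and anterograde genes overlapped in the size of their change. Dynein-2 genes ranged from 0.62 to 1.37 on the log2 scale and kinesin-2 genes from 0.02 to 2.10, with Kif17 above every dynein-2 gene. Set against the wild-type mean of each gene, the median shift of the 5 dynein-2 genes was 0.89 and 0.88 in the 2 Foxn3KO libraries, and that of the 5 kinesin-2 genes was 0.47 and 0.53. The wild-type libraries lay within 0.03 of 0 for both motors. No test was made of these medians, because the genes were chosen with earlier results of these data known.

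To compare genes with each other, CPM was divided by the gene length implied by the authors' own FPKM values. Per kb, the wild-type order began with Kif3a at 47.6 ± 0.0425, then Kifap3 at 37.7 ± 1.10, and Kif3c at 17.6 ± 1.35 CPM per kb (SD, n = 2 each). Dync2i2 (15.1 ± 0.849) and Dync2li1 (14.3 ± 1.34) followed, and their libraries overlapped, so that they were not separated from each other. Below them were Kif3b (11.3 ± 0.545), Dynlt2b (7.75 ± 1.21), Dync2h1 (4.29 ± 0.0605), Dync2i1 (3.81 ± 0.0562) and Kif17 (0.311 ± 0.128 CPM per kb, SD, n = 2 each).

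In Foxn3KO the order differed in the middle: Dync2li1 (28.7 ± 0.605) and Dync2i2 (23.1 ± 0.495) stood above Kif3c (17.9 ± 0.350 CPM per kb, SD, n = 2 each). Dync2i1 (9.85 ± 0.111) stood above Dync2h1 (7.91 ± 0.0566 CPM per kb, SD, n = 2 each), the reverse of wild-type. The lengths are the authors' and run from 1870 bases for Dync2li1 to 16355 for Dync2h1, so levels between genes depend on the transcript model behind them. The fold change of a single gene does not, but sums, ratios and shares over several genes are weighted by these lengths.

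Summed on the same scale, the dynein-2 subunit genes reached 44.7 and 45.7 CPM per kb in wild-type and 82.8 and 82.6 in Foxn3KO, a 1.83-fold difference of the means. The kinesin-2 sum was 113 and 115.8 CPM per kb in wild-type and 152.6 and 155.6 in Foxn3KO, a 1.35-fold difference. Without division by length, summed CPM differed by 1.92-fold for dynein-2 and 1.30-fold for kinesin-2. The log2 ratio of the per-length dynein-2 sum to the kinesin-2 sum was -1.34 in both wild-type libraries and -0.88 and -0.91 in the Foxn3KO libraries. Summed per length, mRNA of the dynein-2 specific subunits was below that of the kinesin-2 subunits in every library. The ratio was higher in Foxn3KO, but the means of the sums rose by similar amounts, 37.5 CPM per kb for dynein-2 and 39.7 for kinesin-2. Light chains that dynein-2 shares with dynein-1 are not in these sums. The sums are led by the abundant members: Kif3a made up 41.6% of the kinesin-2 sum in wild-type and 46.98% in Foxn3KO, Kif17 0.271% and 0.87%.

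Within the heterotrimeric motor, the ratio of Kif3b to Kif3c per length was 0.700 and 0.587 in wild-type and 0.887 and 0.896 in Foxn3KO. The log2 ratio differed by 0.48, and an exact permutation test over the 4 libraries gave p = 0.333 (two-sided), the smallest p that 2 against 2 can give. Kif3a stood at 1.68 and 1.61 times the sum of its partners Kif3b and Kif3c in wild-type and at 2.17 and 2.11 times in Foxn3KO. Among dynein-2 genes, the share of Dync2i1 per length was 8.43% and 8.42% in wild-type and 11.99% and 11.8% in Foxn3KO, and that of Dync2i2 was 32.4% and 34.3% against 28.3% and 27.5%.

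**Figure D3:**
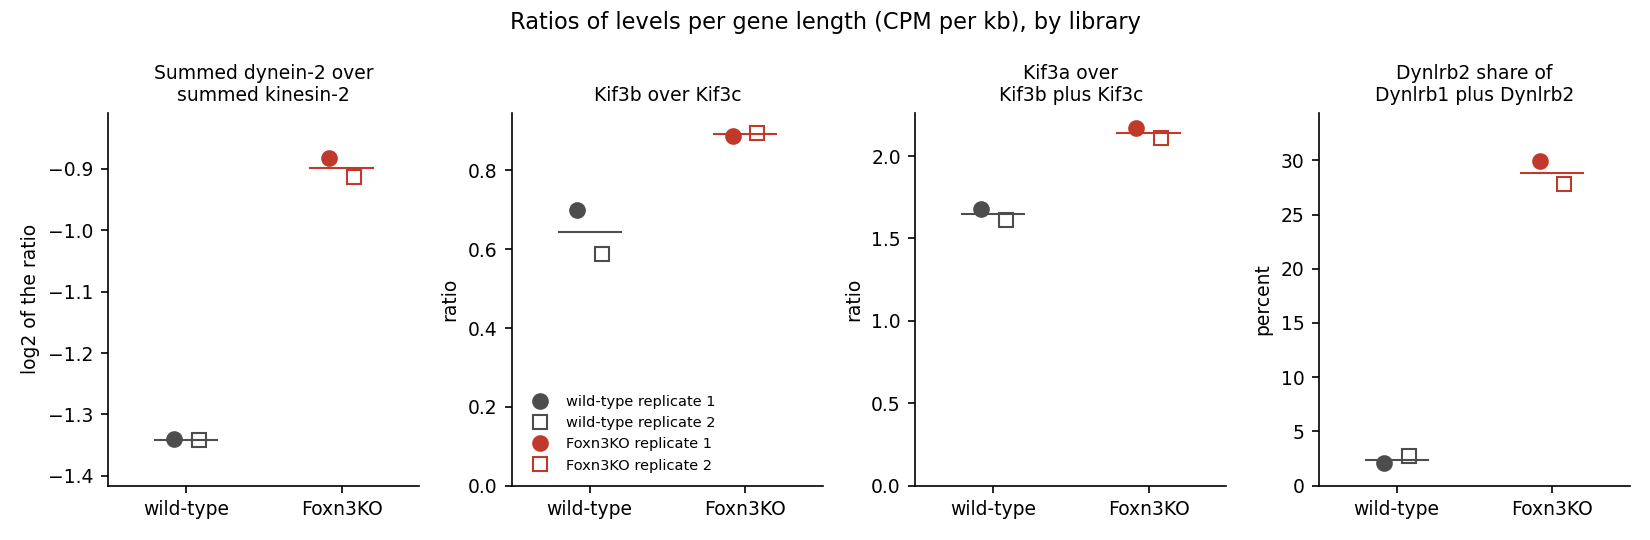
Ratios of per-length levels (CPM per kb) in each library, grey for wild-type and red for Foxn3KO, with group means as lines; the first panel is on a log2 scale and the other 3 axes start at 0. The Foxn3KO libraries lie above the wild-type ones in all 4 panels, and the share of Dynlrb2 moves furthest, from 2.39% to 28.9%.

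Dynein-2 also takes light chains that it shares with dynein-1, the general minus-end motor of the cytoplasm. Of 9 such genes, 3 rose, none fell and 6 did not pass, and their median log2 fold change was -0.0013. Over all tested genes 12.3% were called higher and 9.66% lower. Dynlrb2, a roadblock light chain known from cilia, had 37 and 52 counts in wild-type and 902 and 629 in Foxn3KO, or 1.49 and 1.91 CPM against 30.98 and 28.1 CPM. Its log2 fold change of 4.11 (SE 0.129, edgeR adjusted p = 6.06e-14), 17.2-fold, exceeded that of every dynein-2 specific gene.

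Its paralog Dynlrb1 had 126.6 ± 4.09 CPM in wild-type and 132 ± 0.316 CPM in Foxn3KO (SD, n = 2 each; log2 fold change 0.06, edgeR adjusted p = 0.403). Per length, Dynlrb2 made up 2.05% and 2.73% of the roadblock pair in wild-type and 29.9% and 27.8% in Foxn3KO. Dynll1, an LC8 light chain, rose by 0.34 in log2 units (edgeR adjusted p = 4.90e-05), and its paralog Dynll2, the third gene called, by 0.14 (edgeR adjusted p = 0.0188). Dynll2 did not pass with Foxn3KO replicate 1 or 2 left out (edgeR adjusted p = 0.347 and 0.171). Dynlt1a, Dynlt1b, Dynlt1c and Dynlt1f are near-identical copies whose reads cannot be assigned with certainty.

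Of the 5 genes of dynein-1 itself 2 rose and none fell, beside 12.3% and 9.66% of all tested genes, with a median of 0.14. The heavy chain Dync1h1 rose by 0.18 (edgeR adjusted p = 0.0154) and the intermediate chain Dync1i2 by 0.14 (edgeR adjusted p = 0.0226). Neither passed when Foxn3KO replicate 1 was left out (edgeR adjusted p = 0.0733 and 0.248) or when Foxn3KO replicate 2 was (0.114 and 0.240). With wild-type replicate 1 left out the value of Dync1h1 was 0.09, and with wild-type replicate 2 left out it was 0.28. Per length, the dynein-2 heavy chain stood at 0.181 and 0.155 of the dynein-1 heavy chain in wild-type and at 0.274 and 0.268 in Foxn3KO.

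Among 14 genes of dynactin and other dynein-1 regulators, Dctn3 rose by 0.29 (edgeR adjusted p = 0.000653), Nde1 fell by 0.16 (edgeR adjusted p = 0.0222) and 12 did not pass; Nde1 did not pass in DESeq2 (adjusted p = 0.0707) or with Foxn3KO replicate 1 or 2 left out (edgeR adjusted p = 0.145 and 0.242). Leaving out wild-type replicate 2 took the calls in this list from 2 to 6, leaving out Foxn3KO replicate 1 or 2 took them to 1, and scaling by total counts to 4. Kinesin-1, the axonal transport motor, had 1 of 7 genes called, the light chain Klc2 at 0.16 (edgeR adjusted p = 0.0400), which did not pass in DESeq2 (adjusted p = 0.131) or with total counts (edgeR adjusted p = 0.0715). Klc2 also did not pass with wild-type replicate 1, Foxn3KO replicate 1 or Foxn3KO replicate 2 left out (edgeR adjusted p = 0.0839, 0.295 and 0.15). With wild-type replicate 1 left out the 1 call in that list was Kif5a, at -0.20. Kif5c, second by p in that list, had 0.11 (edgeR adjusted p = 0.0986), and passed with the replicate block (edgeR adjusted p = 0.0476) and without wild-type replicate 2 (log2 fold change 0.17). The medians of these lists were -0.01 for dynactin and regulators and 0.02 for kinesin-1. Their shares called higher were 7.14% and 14.3%, beside 12.3% of all tested genes, of which 9.66% were called lower.

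**Figure D4:**
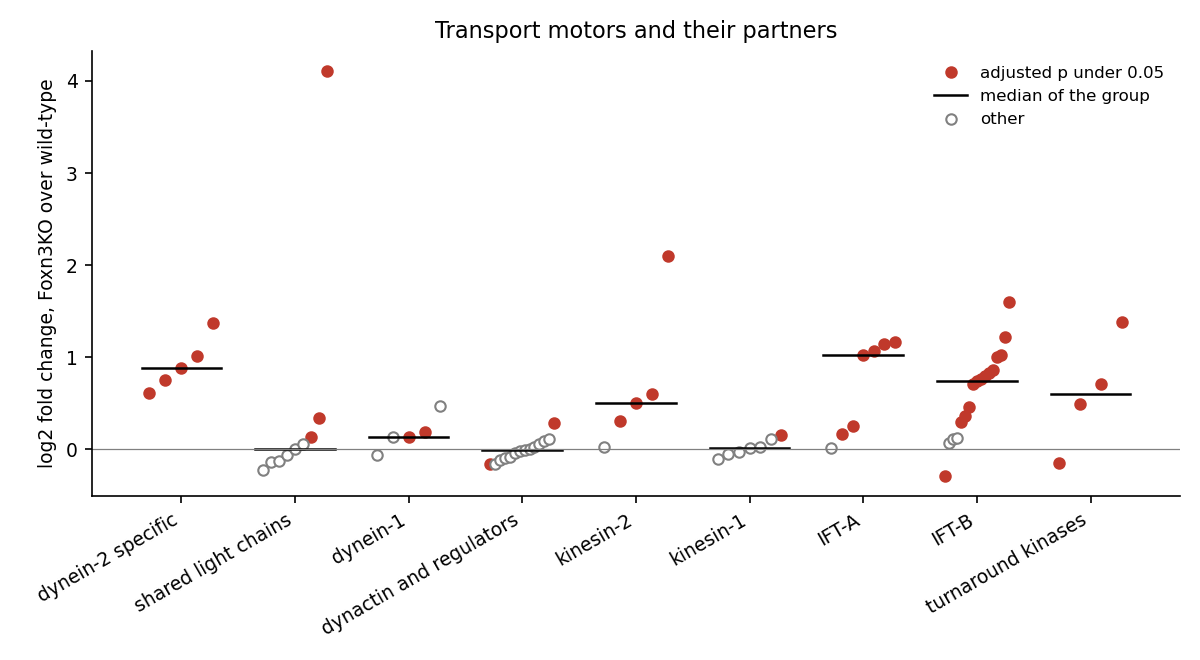
Log2 fold change (Foxn3KO over wild-type, vertical axis) of each tested gene in 9 groups of motor and transport genes; filled red points passed the edgeR test, open points did not, and black lines are group medians. The medians of dynein-2, kinesin-2, IFT-A, IFT-B and the turnaround kinases lie between 0.50 and 1.03, those of the other 4 groups between -0.01 and 0.14.

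The cargo adaptors that ride these motors were set beside them, and beside 12.3% of all tested genes called higher and 9.66% called lower. Of 7 genes of IFT-A, the complex coupled to retrograde transport, counting its adaptor Tulp3, 6 rose and none fell, with a median log2 fold change of 1.03. Ift122 (1.16, edgeR adjusted p = 6.29e-12) and Wdr35 (1.03, edgeR adjusted p = 2.75e-11) had the smallest p-values, and Ttc21b had 0.02 (edgeR adjusted p = 0.889). Tulp3 did not pass with total counts, in DESeq2 or with either Foxn3KO replicate left out (adjusted p = 0.0545, 0.110, 0.274 and 0.130), and with Foxn3KO replicate 1 left out Ift140 did not either (edgeR adjusted p = 0.0538), so that 4 genes passed. Of 17 tested genes of IFT-B, coupled to anterograde transport, 13 rose and 1 fell, with a median of 0.74; Ift22 (1.00, edgeR adjusted p = 3.30e-11) and Ift70b (1.60, edgeR adjusted p = 1.18e-10) had the smallest p-values. The gene that fell was Ift25, by 0.29 (edgeR adjusted p = 0.0486; named after its value was seen). Ift25 did not pass in DESeq2 or limma-voom (adjusted p = 0.200 and 0.0573), or with wild-type replicate 1 or Foxn3KO replicate 2 left out (edgeR adjusted p = 0.168 and 0.416). The medians were thus 1.03 for IFT-A and 0.74 for IFT-B, beside 0.88 for dynein-2 and 0.50 for kinesin-2. The differences between these medians were not tested.

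Of 4 ciliary kinases, grouped here as turnaround kinases, 3 rose and 1 fell, beside 12.3% and 9.66% of all tested genes. Mok rose by 1.38 (edgeR adjusted p = 5.92e-10), Cdk20 by 0.71 (edgeR adjusted p = 4.22e-06) and Mak by 0.49 (edgeR adjusted p = 1.03e-05), while Cilk1 fell by 0.14 (edgeR adjusted p = 0.0462). Cilk1 did not pass in DESeq2 (adjusted p = 0.161) or with Foxn3KO replicate 1 or 2 left out (edgeR adjusted p = 0.409 and 0.171). Axonemal dynein heavy chains, which drive beating and are not part of intraflagellar transport, had 8 of 11 tested genes called, all higher, with a median of 1.62, beside 0.88 and 0.50 for the transport motors; Dnah7a, Dnah7b and Dnah7c are close copies whose reads may be split, and Dnah7a did not pass in 5 of the other settings and left-out libraries. The largest of them, Dnah10 (log2 fold change 7.32) and Dnah9 (4.11), exceeded Kif17 and every dynein-2 specific gene. Dnah10 had 13 and 19 counts in wild-type, so the size of its rise rests on few counts. Dnah3, Dnah6, Dnah12 and Dnah14 were listed but were not among the genes read.

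The genes whose centred log2 CPM over the 4 libraries lay nearest to that of Dync2i1 were Faah, Gm42868 and Hspa1a, with root mean square differences of 0.0166, 0.0462 and 0.0465 among 14915 genes compared. Faah, the enzyme that breaks down fatty acid amides, had 33.1 and 33.2 CPM in wild-type and 85.6 and 86.5 CPM in Foxn3KO. Nearest to Kif17 were Spef1l, Ankfn1 and Dnaaf3, at 0.152, 0.157 and 0.165. Dnaaf3, an assembly factor of axonemal dynein arms, had 12.4 and 17.3 CPM in wild-type and 59.2 and 60.8 CPM in Foxn3KO. The other named genes were rare, with wild-type means of 1.06 CPM for Gm42868, 0.674 for Hspa1a, 0.700 for Spef1l and 0.649 for Ankfn1. With 2 libraries per group this likeness reflects the size of the group difference and the spread of few libraries.

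Markers of other cell types moved to unlike extents, beside 12.3% of all tested genes called higher and 9.66% called lower. All 6 tested lens markers rose, with summed levels of 4.23 and 37.7 CPM in wild-type and 207.5 and 204.3 CPM in Foxn3KO, and none was at 0 in every library. Of 4 tested multiciliated cell markers 3 rose, with sums of 460 and 467 CPM in wild-type and 630 and 633 CPM in Foxn3KO, of which Myb alone gave 453.5 and 443.1 CPM on average. Of 6 tested pigment epithelium markers 2 fell, with sums of 49.4 and 72.7 CPM in wild-type and 40.4 and 41.0 CPM in Foxn3KO. Of 6 vessel and mesenchyme markers 1 rose, and of 5 microglia and blood markers none was called. With wild-type replicate 1 left out, 4 pigment epithelium and 2 microglia and blood markers fell, and all 6 lens markers rose, with a median of 2.45 in place of 3.33. The part of these cells in the motor gene differences was not tested.

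Without wild-type replicate 1, the 3 remaining libraries all have the sex-linked pattern of high Ddx3y and low Xist. In that fit all 5 dynein-2 genes and the same 4 kinesin-2 genes were called higher, at log2 fold changes of 0.90 for Dync2h1, 1.36 for Dync2i1, 0.56 for Dync2i2, 1.11 for Dync2li1, 0.61 for Kif3a, 0.55 for Kif3b and 0.28 for Kifap3. Foxj1, the RFX genes, Dynlrb2 and Dynll1 were also called in that fit, with 4.403 for Foxj1, 1.30 for Rfx2, 0.36 for Rfx1, 0.42 for Rfx3, 3.95 for Dynlrb2 and 0.41 for Dynll1. The lone wild-type library is assumed there to vary like the others. In the authors' deposited table the same 9 genes had an adjusted p under 0.05, and Kif3c had 0.890; in the authors' deposited table the log2 fold changes ran from 0.021 for Kif3c to 2.01 for Kif17.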

How the data were processed

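Per the labels, total RNA of the retina of individual embryos was made into strand-specific libraries whose adaptors carry molecular identifiers. The authors deposited 1 table with whole-number counts per gene and library, unnormalized, and with FPKM values of the same libraries. The authors' deposited table also gives a mean signal per gene, a log2 fold change, its standard error (recorded as a score, not printed here), a p-value and an adjusted p-value. The submitters' processing notes name DESeq2 and the build mm39; aligner, counting tool, annotation, strand setting and duplicate removal are not given in the sources used here.

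Counts of 18471 genes (1 repeated identifier dropped) were filtered with filterByExpr, scaled by TMM, and tested by genotype alone with the quasi-likelihood method of edgeR 4.0.16 (two-sided; R 4.3.3). Benjamini-Hochberg adjustment ran over all 17300 tested genes. Each standard error is the fold change over the root of its F value. Gene lengths were counts over FPKM, equal across libraries to a relative spread of 0.000698. On simulated data with 17300 genes, 80.9% of 2-fold and 96.7% of 4-fold changes were called, with 3 false calls. Every simulated gene had the same dispersion, 0.00264, and no library was made to stand apart. The false calls there are therefore no measure of those in the real libraries. Alternatives were RLE factors, total counts, no filter, a minimum of 10 counts per library, limma-voom (limma 3.58.1), DESeq2 1.42.0, the earlier edgeR fit, a replicate block and leaving out each library. Totals per library were 22543531 to 29360129 counts; 3 counts equalled 0.103 to 0.134 CPM, for counting error only.

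The members and lists were chosen with earlier results of these data known. Named were all members, Foxn3, Foxj1, Rfx1, Rfx2, Rfx3, the 2 genes with the smallest p of each list and the 3 nearest to Dync2i1 and Kif17; others are marked or were named after their values were seen (Ttc21b, Mak, Cilk1, Dynll2, Dynlrb1, Myb, Tulp3, Ift140, Kif5a, Dnah7a, and the genes overlapping members). Figures were drawn with matplotlib 3.10.9.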

Additional observations from a re-analysis of the deposited data

How the results depend on the processing

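Of the 10 motor genes, all kept their direction and their side of the threshold under the 8 settings other than leaving out a library: RLE factors, total counts, no filter, a minimum of 10 counts, DESeq2, limma-voom, the earlier edgeR fit and the replicate block. Total counts, which lower the median of all genes from -0.0047 to -0.025, took the dynein-2 median to 0.863. DESeq2 called 2433 genes in all, against 3795; the cause was not tested. Total counts took the share of all calls that were higher from 55.9% to 48.2%.

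Replicate numbers recur in both groups. Differences between replicates 1 and 2 correlated across groups at -0.0096 over 17300 genes, which are not independent. With a single difference per group, this value cannot decide whether libraries were paired. With the replicate block, 4222 genes were called, and the block changed no call among the motor genes.

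Leaving out each library gave 2323 to 5067 called genes, 5 dynein-2 and 4 kinesin-2 genes each time, medians of 0.877 to 0.916 for dynein-2 and 0.449 to 0.549 for kinesin-2, and Kif3c at -0.0538 to 0.101, the negative value without wild-type replicate 1. Ttc21b and Sh2d5, near 0 and never called, changed sign: Ttc21b was -0.0018 with total counts and -0.0262 to 0.0732 with a library left out, and Sh2d5 was -0.0158 with total counts, -0.00073 with at least 10 counts per library, -0.0119 with limma-voom and -0.129 to 0.142 with a library left out. With 1 sample in a group, that sample is assumed to vary like the others. Since the lengths come from the authors' FPKM, ratios in FPKM equal those in CPM per length by construction and check nothing. Depth limits Kif17 and Dynlrb2, whose wild-type counts were 25 to 52, and Dnah10, with 13 and 19.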
